A study of Mus musculus with 5 samples.

Results

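Remote shared peaks are places called as peaks of histone H3 acetylated at lysine 9 (H3K9ac) in both DOP-treated and untreated STHdh Q111 cells. They lie far from every protein-coding gene start of the annotation used. They were chosen from the deposited lists: a peak had to overlap a peak of the other list by 1 bp or more, and its centre had to lie more than 100 kb from every start of a protein-coding gene in GENCODE vM1. The DOP-treated list held 346 such peaks of 34286 (1.01%) and the untreated list 346 of 33355 (1.04%). When peaks of both lists whose centres lay within 1 kb of the next were chained, these 692 peaks formed 282 loci. The overlap and the scores behind each peak therefore belong to the choice of members and are given below as a description.

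The cells are striatal progenitor cells of C57BL/6 mice, genotype STHdhQ111/Q111, which carry mutant huntingtin and model Huntington disease in culture. All groups were kept for 24 h in serum-free medium, with DPBS vehicle in the untreated group (labelled SST, serum starvation) or with 4 mM 4-deoxypyridoxine hydrochloride (DOP), an inhibitor of sphingosine-1-phosphate lyase. Chromatin was immunoprecipitated with an antibody to H3K9ac from 2 samples of each of these groups, and with normal rabbit IgG from 1 sample of untreated cells. A single peak list was deposited for each H3K9ac group, so no peak has a replicate error, and the depth behind each peak is unknown. Differences between the lists are differences between 2 sets of values and not tests of the treatment. The samples are cultures of 1 immortalized line. Of 10 mesenchymal or fibroblast markers, 9 had a peak within 1 kb of a coding start in both lists (Col1a1, Col3a1 and Twist1 among them), against 4 of 10 neural progenitor markers (Msi1, Vim, Hes1, Notch1), 1 of 10 striatal projection neuron markers (Foxp1) and 0 of 5 pan-neuronal markers. Nes, Sox2 and Pax6 had no such peak in either list. Map2, a further pan-neuronal marker, was not counted. The share of all coding genes with such a peak was not computed, so these counts are a description only.

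H3K9ac is laid down by histone acetyltransferases and removed by histone deacetylases, and in mammalian cells it is densest over active promoters. It is also found, usually more weakly, at active enhancers, which can lie far from the gene they act on. Sequence far from coding starts holds enhancers, promoters of noncoding RNAs, pseudogenes (copies of genes) and repeated sequence. These differ in letters that can be seen directly, and the examples that follow are each the 200 bp of 1 member on the plus strand of NCBIM37 (mm9).

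The highest-scoring and the third-highest locus are shown first because they carry nearly identical stretches of sequence on different chromosomes. The first, at chr12:3109864-3110063, lies 127 kb upstream of 1700012B15Rik, and the other, at chr13:77578114-77578313, lies in an intron of 2210408I21Rik. Capitals mark the 142 bases that align to each other on opposite strands, of which 138 are identical (97.2%).
1700012B15Rik neighbourhood: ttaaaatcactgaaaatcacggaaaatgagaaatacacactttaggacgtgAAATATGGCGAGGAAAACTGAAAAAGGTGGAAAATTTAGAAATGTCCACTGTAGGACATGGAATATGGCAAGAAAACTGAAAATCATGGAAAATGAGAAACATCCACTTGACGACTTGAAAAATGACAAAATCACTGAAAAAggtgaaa
2210408I21Rik intron: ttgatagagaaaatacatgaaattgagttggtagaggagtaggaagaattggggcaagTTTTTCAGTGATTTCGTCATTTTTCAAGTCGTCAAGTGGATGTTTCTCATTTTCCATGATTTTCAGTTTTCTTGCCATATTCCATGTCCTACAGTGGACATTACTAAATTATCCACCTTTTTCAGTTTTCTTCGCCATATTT
The capitals of the second sequence, read backwards on the other strand, match those of the first at 138 of the 142 bases. Both are poor in G and C (34% and 35%).

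The next set shows 3 of the highest-scoring loci that were CpG-rich (GC of at least 50% and an observed over expected CpG ratio of at least 0.6) and had neither an annotated start within 1 kb nor the letters of the last set, with every CG in capitals. They lie 206 kb downstream of the start of Mef2c, which encodes a transcription factor of neurons and muscle (chr13:83870317-83870516), 119 kb upstream of Klf4, a zinc finger transcription factor of stem cells (chr4:55664259-55664458), and 139 kb downstream of the start of Chek2, a DNA damage checkpoint kinase (chr5:111408686-111408885).
Mef2c neighbourhood: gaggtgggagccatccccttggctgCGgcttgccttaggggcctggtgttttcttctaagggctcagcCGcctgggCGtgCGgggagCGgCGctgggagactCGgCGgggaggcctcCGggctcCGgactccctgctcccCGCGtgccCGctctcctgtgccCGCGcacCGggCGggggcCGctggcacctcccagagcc
Klf4 neighbourhood: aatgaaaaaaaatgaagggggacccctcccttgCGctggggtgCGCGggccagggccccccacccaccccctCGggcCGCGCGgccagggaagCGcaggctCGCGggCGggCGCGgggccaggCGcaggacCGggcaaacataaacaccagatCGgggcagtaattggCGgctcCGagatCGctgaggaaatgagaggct
Chek2 neighbourhood: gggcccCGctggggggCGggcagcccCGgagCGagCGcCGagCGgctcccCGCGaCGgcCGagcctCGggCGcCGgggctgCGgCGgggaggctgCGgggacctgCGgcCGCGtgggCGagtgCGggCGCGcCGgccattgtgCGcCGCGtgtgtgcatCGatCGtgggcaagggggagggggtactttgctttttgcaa
The 3 peaks hold 18, 19 and 30 CG pairs.

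The last set shows 4 of the highest-scoring loci without a CpG-rich peak that hold the letters TGANTCA, which AP-1 factors such as Jun and Fos are known to bind, with those 7 letters in capitals. The first lies at the start of the long noncoding RNA Gm14005, which is Morrbid in RefSeq (chr2:128254253-128254452). The others lie 166 kb upstream of Dcn, the gene of the matrix proteoglycan decorin (chr10:96776014-96776213), near the noncoding RNA Gm14636 (chrX:18744075-18744274), and 172 kb from Gm7713 (chr15:59654598-59654797).
Gm14005 start: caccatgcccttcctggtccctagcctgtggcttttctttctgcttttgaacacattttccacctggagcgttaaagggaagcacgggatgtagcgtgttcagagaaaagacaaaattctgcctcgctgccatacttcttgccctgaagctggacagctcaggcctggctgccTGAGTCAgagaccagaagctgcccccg
Dcn neighbourhood: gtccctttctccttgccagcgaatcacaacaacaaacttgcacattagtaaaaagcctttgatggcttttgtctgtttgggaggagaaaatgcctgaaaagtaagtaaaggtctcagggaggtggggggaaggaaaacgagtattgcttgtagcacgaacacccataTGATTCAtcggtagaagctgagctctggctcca
Gm14636 start: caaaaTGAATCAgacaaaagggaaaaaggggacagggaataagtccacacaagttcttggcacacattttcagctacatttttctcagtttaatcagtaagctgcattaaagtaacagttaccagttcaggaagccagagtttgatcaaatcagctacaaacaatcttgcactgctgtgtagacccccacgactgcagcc
Gm7713 neighbourhood: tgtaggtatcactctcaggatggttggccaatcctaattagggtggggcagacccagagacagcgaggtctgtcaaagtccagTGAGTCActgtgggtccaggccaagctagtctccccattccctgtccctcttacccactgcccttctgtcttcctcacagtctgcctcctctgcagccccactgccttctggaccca
The Dcn peak is the untreated one and the other 3 are DOP-treated peaks. Each of the 4 holds between 1 and 5 CG pairs.

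The remote shared peaks were weak within their lists. Their median score was 134 in the DOP-treated list, where all peaks had a median of 419, and 120 in the untreated list, where all peaks had 400. Placed within their own list, in which the lowest score has a percentile near 0 and the highest 100, they had a median percentile of 14.6 (quartiles 7.35 and 32.2) and 14.0 (6.89 and 29.5). Shared peaks 10 to 100 kb from a coding start, called distal shared peaks here, had medians of 27.2 and 23.9, and shared peaks within 10 kb had 61.3 and 59.7. The upper part of each list (percentile 50 or above) held 45 and 41 remote shared peaks. A further 300 DOP-treated and 260 untreated peaks lay beyond 100 kb without a partner, with median scores of 54 and 50.1. How often a remote peak had a partner followed its score: in the DOP-treated list 33.0% of the remote peaks at percentile 10 or below were shared, 68.8% between percentiles 10 and 25, 84.6% between 25 and 50, and 95.7% above 50. In the highest of these bands the distal and near peaks were shared at 95.2% and 95.5%.

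**Figure D1:**
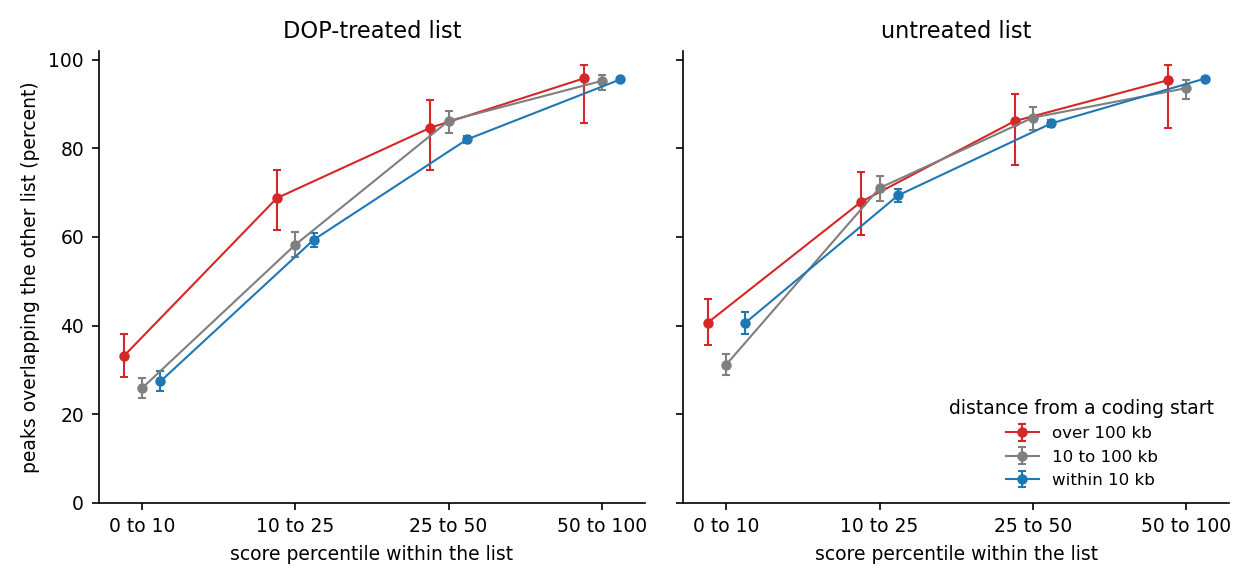
Share of peaks that overlap the other list (percent, points, with 95% Wilson intervals for the counting of peaks) by score percentile within the list, for peaks over 100 kb, 10 to 100 kb and within 10 kb of a coding start. In both lists the 3 distance classes climb together, from 25.8% to 40.7% in the lowest band to 93.6% to 95.7% in the highest.

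Scores of the same place were close in both lists. Across the 346 DOP-treated members, the score was higher than that of the nearest overlapping untreated peak in 235 (67.9%), and the median log2 ratio of DOP-treated to untreated score was 0.16 (quartiles -0.07 and 0.38). Distal shared pairs had a median of 0.21 and near pairs 0.09, so a small excess of the DOP-treated score was seen in all 3 classes. Of the 346 pairs, 11 (3.18%) differed by more than 2-fold, against 5.49% of distal and 8.85% of near pairs. At 7 of the 11 the place held 1 peak in one list and 2 in the other, so that a single peak was set against one of a pair. At the start of the small nucleolar RNA gene AC150277.1, which gave the lowest ratio (-1.78), an untreated peak of 666 overlapped DOP-treated peaks of 194 and 637. In a duplicated stretch of chromosome 12, which gave the highest ratio (1.29), a DOP-treated peak of 115 overlapped 2 untreated peaks of 47 each. A DOP-treated peak of 205 overlapped untreated peaks of 87 and 91 at a place 741517 bp upstream of Jmjd1c, a histone demethylase family gene. Among the 304 pairs in which each peak overlapped only the other, a restriction chosen after seeing the data, 4 (1.32%) differed by more than 2-fold, against 1.20% of such distal and 1.16% of such near pairs. In all 4 the DOP-treated score was the higher. A pair near Tgfb2, which encodes a secreted growth factor, scored 76 and 34.3. A pair in an exon of Celf4, with AW554918 as the gene of the nearest coding start, scored 305 and 127. The other 2 pairs lay near Samd9l (163 and 80.3, 121 and 50.6). Both belong to 1 locus, which is sorted below with sequence repeated nearby or with a second place in the assembly. These 4 pairs were picked out after their values were seen, and their difference has no replicate check.

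**Figure D2:**
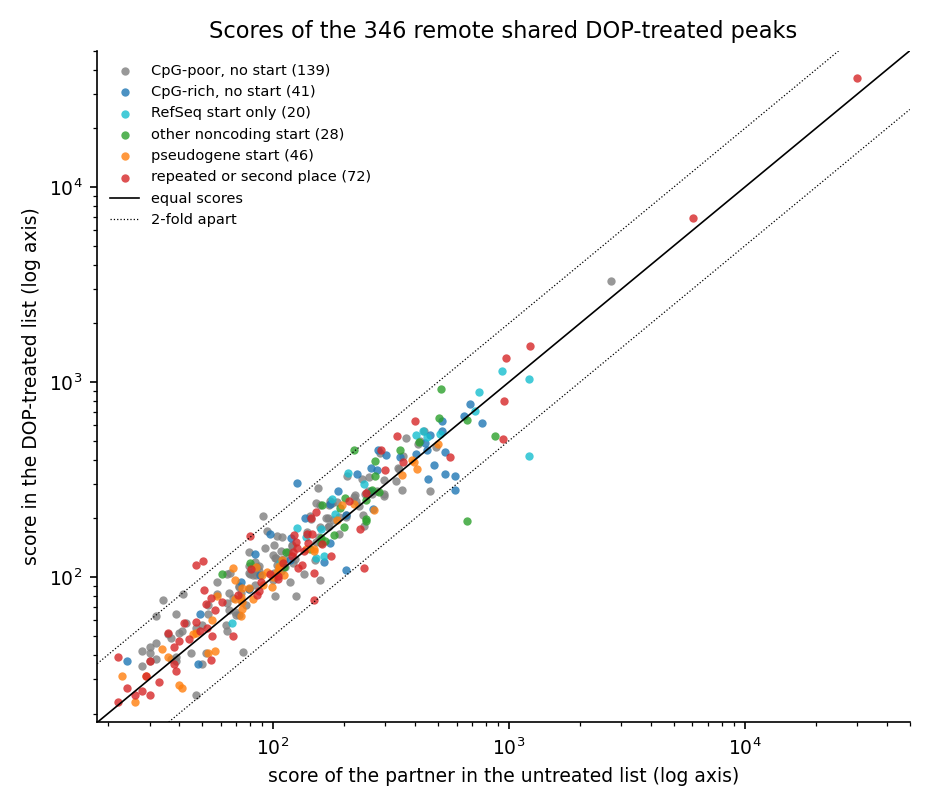
Score of each of the 346 DOP-treated members against the score of its partner in the untreated list, both on log axes, coloured by the class of its locus, with lines for equal scores and for scores 2-fold apart. The points follow the line of equal scores from 22 to 36413, and 11 lie outside the 2-fold lines, 7 of them at places with 1 peak in one list and 2 in the other.

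The 282 loci were sorted into 6 classes that do not overlap, taken in this order. A GENCODE pseudogene start lay within 1 kb of a peak centre at 44 loci and another noncoding start at 18. Of the remaining loci, 58 lay in sequence repeated nearby (over 25% of the 12-base words of a peak found 3 or more times within 1 kb) or had a second place in the assembly (at least 80% of the locus at 90% identity or more). A RefSeq start that GENCODE vM1 does not list lay within 1 kb of 13 more. In the last 149 none of these was found under these limits, and 25 of them held a CpG-rich peak while 124, or 44.0% of all loci, did not. A looser match (at least 50% of the locus at 80% identity or more) gave another place for 4 of the 25 and 7 of the 124. For 4 and 1 of these, such a place was a coding start with peaks in both lists. The highest-scoring of the 124 is the 2210408I21Rik intron locus shown above. RefSeq starts were not assessed for 10 of the 282 loci, all on 1 chromosome, so a RefSeq start there would not be seen. The median of each locus's highest score percentile in the DOP-treated list was 37.0 for the CpG-rich loci without a start, 30.5 at other noncoding starts and 30.5 at RefSeq starts, and 12.4, 10.6 and 8.76 for CpG-poor loci, repeated or second places and pseudogene starts. In the untreated list the same 6 medians were 33.1, 28.6 and 22.9, and 11.7, 9.69 and 8.45. The classes also differed in how far apart the 2 lists placed a peak. The centres of partner peaks lay within 10 bp of each other in 73.9% of the pairs at pseudogene starts and 59.7% of those in repeated or second places, against 22.3% at CpG-poor and 17.1% at CpG-rich loci without a start.

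**Figure D3:**
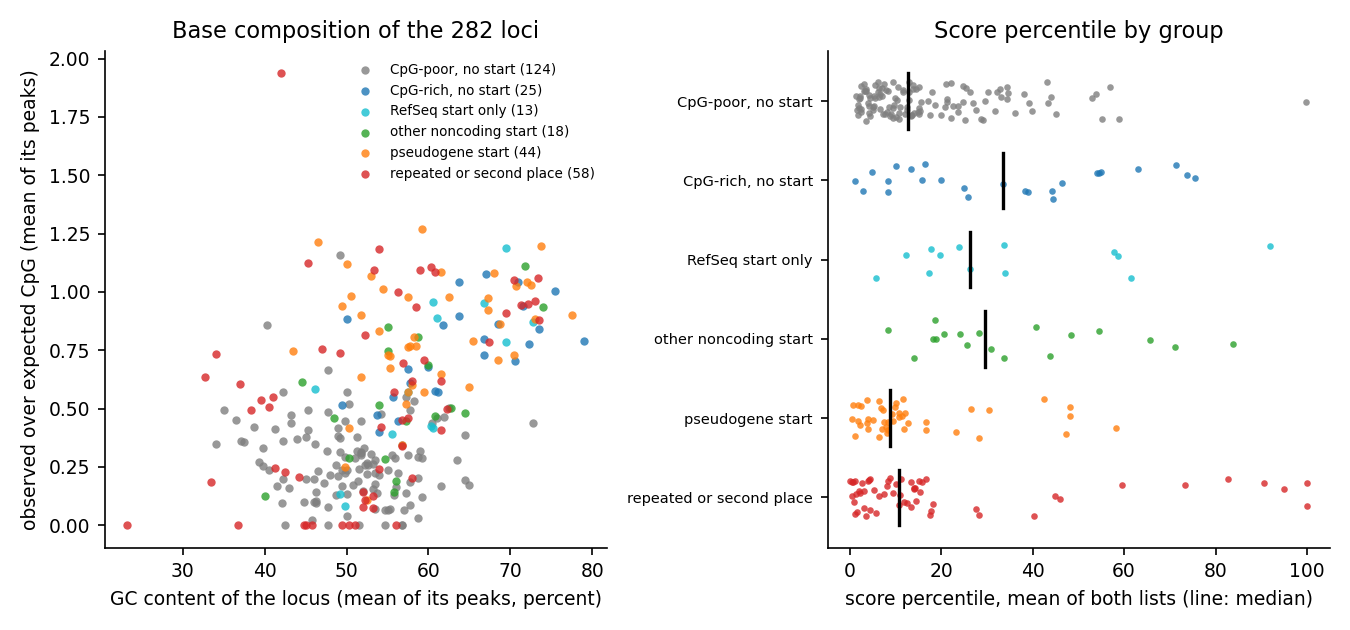
Left, GC content (percent) against observed over expected CpG for the 282 loci, each the mean of its peaks, coloured by class. Right, the score percentile of each locus (mean of both lists) by class with its median as a line; the medians of CpG-rich loci and of loci at RefSeq or other noncoding starts lie to the right of the other 3.

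The highest scores of all came from copies of repeated sequence. The locus at chr12:3109863-3110063, whose sequence opens the set above, scored 36413 in the DOP-treated and 29859 in the untreated list, the 100.0 percentile of each after rounding, and its sequence has at least 50 other places in the assembly, the most the search listed. One of them lies at the start of Gm10722, an annotated coding gene of chromosome 9, where both lists have peaks (5820 and 4330). The next, at chr6:103599118-103599318 in an intron of Chl1, a neural cell adhesion gene, scored 6980 and 6029 and has 4 other places, among them the start of Gm10800. The third, in the 2210408I21Rik intron, scored 3288 and 2721 and missed the limit for a second place, since only 71.5% of it matches elsewhere (97.2% identity, again near Gm10722). The next, in an intron of Mdga2 (chr12:68160364-68160564), an adhesion gene of neurons, scored 1540 and 1235 and lies in sequence repeated nearby (38.1% of its words). Each of these 4 loci had 1 peak in each list, and in all 4 the DOP-treated score was the higher. Their centres in the 2 lists lay at most 1 bp apart.

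Several of the next loci held many peaks and had no second place in the assembly. The locus with the most peaks, chr6:99470498-99473377, had 6 DOP-treated and 5 untreated peaks over 2880 bp, 143 kb from a start of Eif4e3, a gene of the cap-binding translation factor family that spans it in GENCODE vM1. Its DOP-treated scores ran from 419 to 1144 and its untreated ones from 405 to 1217, and its highest peak reached percentile 91.0 in one list and 92.8 in the other. Its peaks averaged 66.8% GC with a CpG ratio of 0.95. A coding start of Foxp1, a forkhead transcription factor gene of striatal neurons, was placed 368 bp from a peak by its RefSeq sequence, so the later annotation puts a coding start where GENCODE vM1 has none. The next, chr6:51122480-51124638, had 5 and 4 peaks and scores of up to 668 and 643. It lies 95.4 kb from the start of Mir148a, a microRNA gene, and 113 kb from Gm9953, with no start of either annotation within 1 kb. Then came chr2:128254253-128255610 at the start of Gm14005, with 3 peaks in each list and highest scores of 923 and 870, and the Chek2 locus with 3 and 3 (430 and 483). A locus at the start of the long noncoding RNA Gm16899, chr1:7387034-7388625, had 3 and 3 as well (449 and 345). Peak counts were equal in both lists at 264 of the 282 loci, and 226 loci (80.1%) had 1 peak in each. These counts cover members only, and the rule required each member to overlap a peak of the other list.

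**Figure D4:**
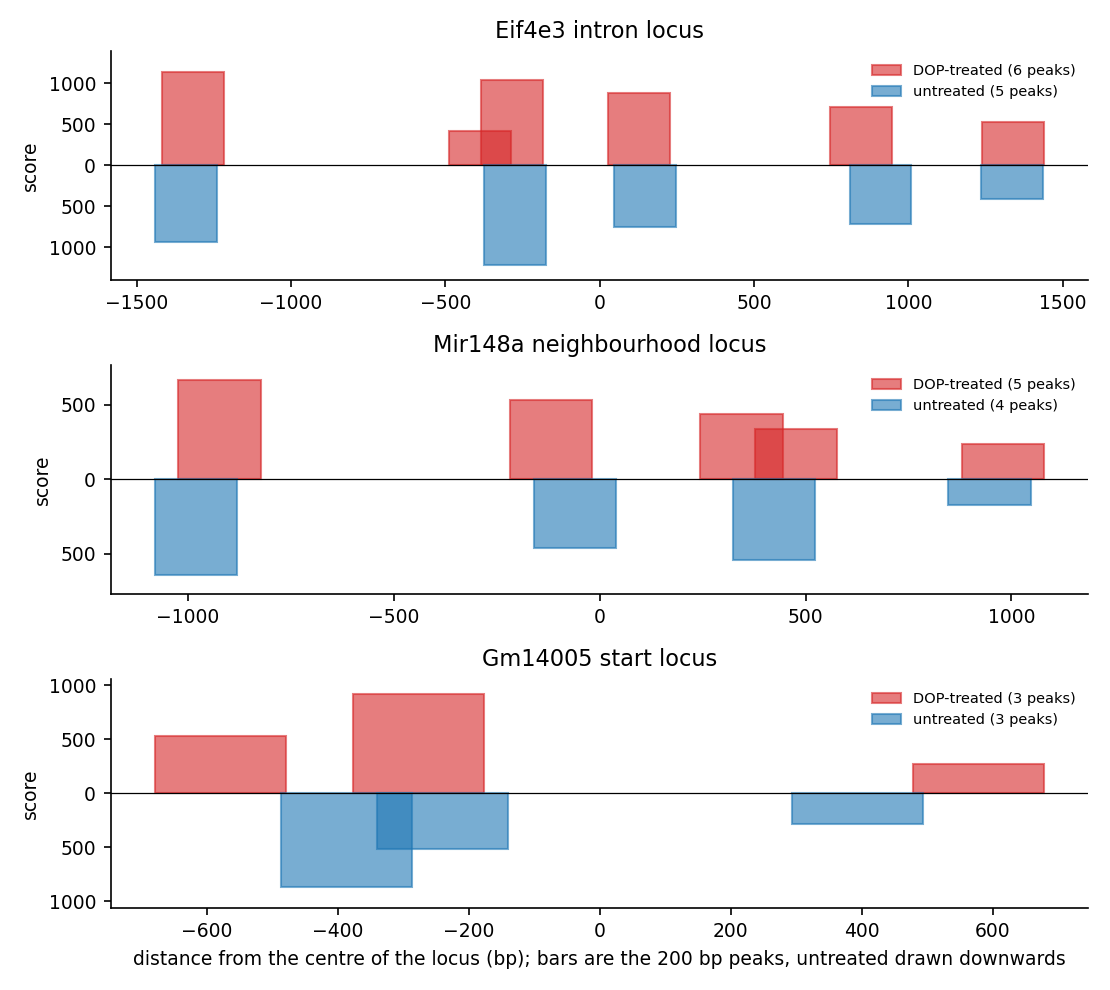
Peaks of 3 of the loci with the most peaks, as 200 bp bars at their distance (bp) from the centre of the locus, with the score as height, DOP-treated upwards and untreated downwards. Only members are drawn, so every peak overlaps a peak of the other list by the rule. At the third locus the last peaks of the lists overlap only at their edges. The DOP-treated list has 1 more peak than the untreated list at the first 2 loci and the same number, 3, at the third.

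Other loci high in the lists lay in sequence without a second place. The Mef2c locus scored 769 in the DOP-treated and 683 in the untreated list, with the RefSeq start of the noncoding RNA C130071C03Rik 1.10 kb away. A CpG-rich locus 811 kb from Gm7536 (chr3:25042629-25043188) scored 632 and 771. The Klf4 locus scored 564 and 522. In an intron of Kcnq1, which encodes a potassium channel, chr7:150481360-150481564 scored 539 and 512 and lies 988 bp from the RefSeq start of Kcnq1ot1, the imprinted antisense RNA of that gene. In an intron of Zfhx3, a homeodomain transcription factor gene, chr8:111420704-111420921 scored 564 and 435, and another locus in the same intron, 172 kb from the start, scored 319 and 238. Both Zfhx3 loci were CpG-poor, with ratios of 0.17 and 0.18. An intronic locus of Trio, a guanine exchange factor gene of axon growth (chr15:27713340-27713547, 466 and 489), and one of Arid1b, a subunit of a chromatin remodelling complex (499 and 421), were CpG-poor as well. A second Trio locus, chr15:27717729-27718084, was CpG-rich, with DOP-treated peaks of 332 and 280 over 1 untreated peak of 594. Between genes, chr16:29813914-29814129 scored 559 and 433 at 377 bp from the RefSeq start of Gm46567, and chrX:18814529-18815421 scored 524 and 449 at 301 bp from a RefSeq start of Gm14636.

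Starts of noncoding transcripts marked 62 of the 282 loci. They belonged to 44 pseudogenes, 11 long intergenic noncoding RNAs, 3 microRNAs, 3 processed transcripts and 1 small nucleolar RNA. The 10 highest-scoring of them began with Gm14005, AC150277.1 (637 and 666) and the long noncoding RNA Gm11818 (657 and 507, chr4:12834105-12834304). The noncoding RNA 2610035D17Rik, downstream of Sox9, scored 491 and 415, Gm16899 scored 449 and 345, and A230028O05Rik scored 448 and 271. The other 4 were pseudogenes: RP23-71I22.5 of chromosome 12 (480 and 503), Gm7488 (399 and 387), Gm10698 (390 and 396) and Gm1821 (360 and 410).

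Pseudogene starts were matched to the genes they copy. Of the 44, 33 had a second place in the assembly, and at 15 that place was a coding start with peaks in both lists. Gm7488 (chr3:20948393-20948597) is identical over its match to the start of Nudt21, which encodes a pre-mRNA cleavage factor, where the scores were 1478 and 1446, against 399 and 387 at the copy. Gm10698 (chr9:33535822-33536024) is likewise identical to the start of Tmed2, a vesicle transport gene, with 1238 and 947 against 390 and 396. Pcna-ps2, named after its values were seen, matches Pcna, the replication clamp gene, at 99.0%, with 914 and 890 against 238 and 221. Among the 15, the gene scored above its copy at 10 in the DOP-treated and at 11 in the untreated list, with median ratios of gene to copy of 3.17 and 2.39. Among the 9 of them outside chromosome 12, it scored above its copy at 7 in the DOP-treated and at 8 in the untreated list, with median ratios of 3.70 and 3.39. Such a second place was also found for 20 remote loci without a pseudogene start, 12 of them on chromosome 12. There the gene scored higher at 15 and 14, with median ratios of 2.39 in both lists, so the pattern is not particular to pseudogene starts. Whether reads from the genes were placed on their copies was not tested.

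**Figure D5:**
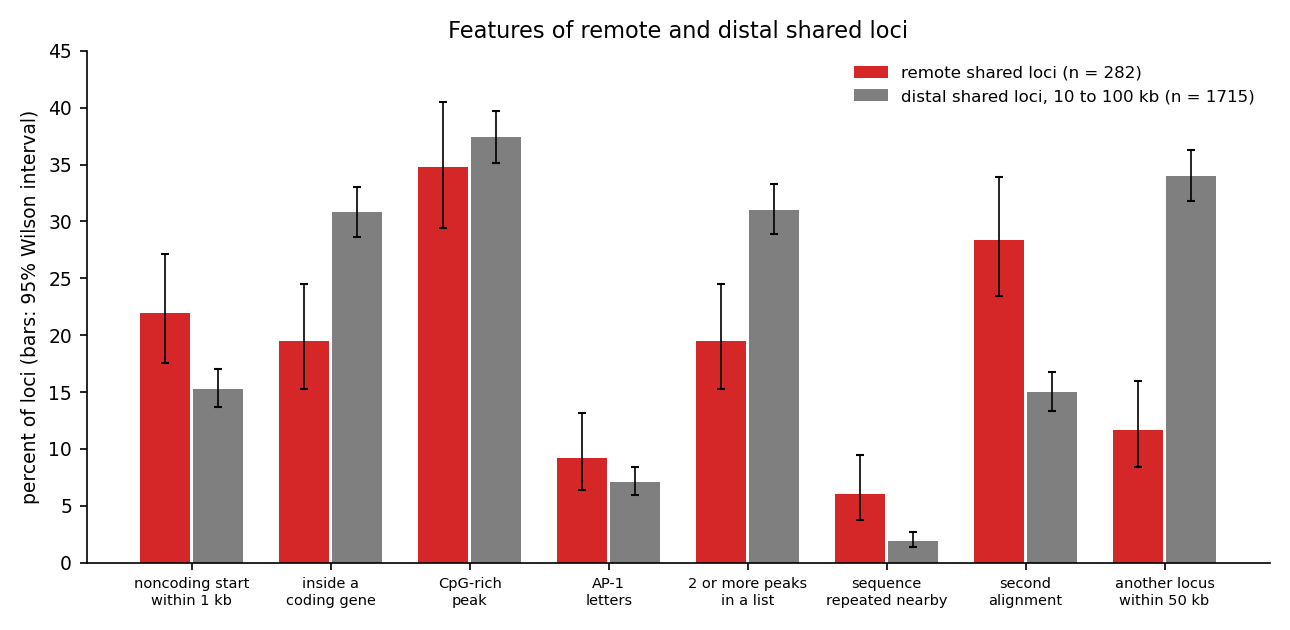
Percent of the 282 remote (red) and 1715 distal (grey) shared loci with each of 8 features, with 95% Wilson intervals. The remote bars are higher for noncoding starts (22.0% against 15.3%), repeated sequence (6.03% against 1.92%) and second alignments (28.4% against 15%). They are lower for more than 1 peak in a list, which counts shared peaks only. They are also lower for the inside of coding genes and another locus within 50 kb, which are tied to the distance classes.

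To ask what sets these loci apart from shared loci nearer to genes, 8 features were compared with the 1715 distal shared loci 10 to 100 kb from a coding start, by two-sided Fisher's exact tests with Benjamini-Hochberg adjustment over the 8. Loci, not samples, are the units here, and neither neighbouring loci nor copies of the same sequence are independent. The p-values and intervals do not allow for this. Second alignments were found at 80 of 282 remote loci (28.4%) and 257 of 1715 distal loci (15%), a difference of 13.4 percentage points (95% interval 8.13 to 19.1, adjusted p = 7.42e-07, Fisher's exact test). Of these 80 remote loci, 9 and 6 lay in 2 stretches of chromosome 12 described below. A second alignment had to cover 80% of the whole locus. Median locus lengths were 226.5 bp (remote) and 250 bp (distal), and the effect of length was not tested. Sequence repeated nearby was found at 17 (6.03%) and 33 (1.92%), a difference of 4.10 points (1.75 to 7.56, adjusted exact p = 0.000423). Noncoding starts were at 62 (22.0%) and 262 (15.3%), a difference of 6.71 points (1.93 to 12.1, adjusted exact p = 0.00894). Without the loci in repeated sequence or with a second alignment, this last difference was 2.71 points and did not pass (adjusted exact p = 0.282). Remote loci with more than 1 peak in a list were fewer, 55 (19.5%) against 532 (31.0%) (difference -11.5 points, -16.3 to -6.06, adjusted exact p = 0.000149). Only peaks that overlap the other list were counted, so this feature is tied to the choice of members and to their scores. In the upper 50% of scores the difference was -6.46 points and did not pass (adjusted exact p = 0.529). Another locus of the same distance class lay within 50 kb of 33 remote loci (11.7%) and 583 distal loci (34.0%). This last share depends on the classes themselves, of 282 and 1715 loci, and is given as a description.

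Inside coding genes lay 55 remote loci (19.5%) and 528 distal loci (30.8%), a difference of -11.3 points (-16.0 to -5.83, adjusted exact p = 0.000190). Against the distal loci beyond 50 kb alone it was -1.46 points (adjusted exact p = 0.695). A locus over 100 kb from every start can lie only in a long gene, so this feature is tied to the distance itself. The difference in CpG-rich peaks did not pass, with 98 (34.8%) and 641 (37.4%), a difference of -2.62 points (-8.43 to 3.53, adjusted exact p = 0.425). Without the loci in repeated sequence or with a second alignment it was -8.90 points and passed (adjusted exact p = 0.0190). Nor did that in AP-1 letters, in 26 (9.22%) and 122 (7.11%), a difference of 2.11 points (-1.03 to 6.21, adjusted exact p = 0.251).

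Among single peaks, searched for the motif letters on both strands, TGANTCA was in 6.07% of the DOP-treated and 5.78% of the untreated members, 3.98% and 4.15% of distal shared peaks, and 3.38% and 3.03% of all peaks. Of the peaks that were not CpG-rich, it was in 8.02% and 7.02% of members, 5.15% and 5.51% of distal shared peaks and 5.16% and 4.64% of all peaks. The letters ACAANG, a core that SOX factors bind, were in 34.7% and 36.4% of members, 29.4% and 30.6% of distal shared peaks and 25.2% and 24.9% of all peaks. Of the peaks that were not CpG-rich, these letters were in 33.8% and 35.1% of members. Among such distal shared peaks the shares were 33.1% and 33.5%, and among all such peaks 31.5% and 31.3%. The GC box GGGCGG was in 17.9% and 15.9% of members, 20.7% and 19.9% of distal shared peaks and 28.5% and 29.3% of all peaks. The E-box CANNTG was in 47.4% and 48.3% of members, 54.8% and 54.9% of distal shared peaks and 50.9% and 50.4% of all peaks. For 9 other strings, shares are given for members, distal shared peaks and all peaks of the DOP-treated list. GGAATG (TEAD) was in 10.4%, 9.64% and 8.50%, TGTGGT (RUNX) in 10.4%, 11.8% and 8.50%, and TTGGCA (an NF1 site) in 10.4%, 7.13% and 6.99%. CCAAT was in 15.9%, 15.3% and 13.9%, and CCGGAA (ETS) in 7.51%, 6.44% and 8.57%. TGACGTCA (CRE) was in 0.578%, 0.130% and 0.213%, TAATTA (homeodomain core) in 1.16%, 1.90% and 1.46%, and ATGCAAAT (octamer) and GCATGCGC (NRF1) in 0 members, against 0.735% and 0.476% of distal and 0.420% and 0.507% of all peaks. None of the 13 strings contains another, although neighbouring matches can share letters, and a match of letters is not a bound site.

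Among loci with AP-1 letters near listed genes, Myc, a growth regulator, had a locus 152 kb downstream of its start (chr15:61970809-61971170) with scores of 200 and 171. Tgfb2 had 2 loci, at 185 and 173 kb, with scores of 171 and 140 and of 76 and 34.3, and both held the letters. Sox9, a transcription factor of cartilage and glia, also had 2, 161 kb upstream of its start (243 and 187) and 242 kb downstream (82 and 41.6), and the weaker of them held the letters. Hmga2, a chromatin architecture gene, had 1 at 133 kb (63 and 32). Only at the Tgfb2 locus at 185 kb were the letters in the peaks of both lists. At Myc they were in the untreated peak alone. At the other Tgfb2 locus, Sox9 and Hmga2 they were in the DOP-treated peak alone. These 5 loci with the letters lay at percentiles from 1.64 to 23.4, and the Dcn locus, whose letters are in its untreated peak, lay at 56.5 and 51.3. Listed genes with a single locus that are named here and in the next paragraph (Myc, Hmga2, Tgfbr2, Igfbp3, Dcn and Jun among them) were picked out after their values were seen.

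By nearest gene, developmental transcription factors were nearest to 14 of 282 remote loci (4.96%) and 22 of 1715 distal loci (1.28%). The 12 genes were Gata3, Hmga2, Myc, Osr1, Runx2, Sall3, Sox4, Sox5, Sox9, Tbx3, Zfhx3 and Zic4. Such genes often stand in long stretches without other genes, and the length of those stretches was not compared. Growth factor and morphogen genes were nearest to 4 loci (1.42%; distal 1.63%), with Tgfbr2, a receptor of TGF-beta (411 and 345), and Igfbp3, a binding protein of insulin-like growth factors (231 and 232), beside Tgfb2. Matrix and adhesion genes were nearest to 4 (1.42%; distal 1.17%): Dcn (482 and 412), Tnc, Adamts5 and Cdh13. Immediate early and AP-1 genes were nearest to 4 (1.42%; distal 0.70%), namely Klf4, Klf6 at 2 loci (152 and 152, 118 and 122), and Jun, which encodes an AP-1 subunit, 109 kb upstream (362 and 260). Axon guidance genes were nearest to 3 (1.06%; distal 0.35%), and genes of sphingosine-1-phosphate and histone deacetylases to 0 (distal 2 loci). In all, 235 genes were the nearest to at least 1 locus. Of 22380 annotated coding genes, the lists held 107, 90, 81, 31, 51 and 23, in the order given here.

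The genes nearest to the most loci were predicted genes of chromosome 12, Gm10479, Gm17391 and Gm17680, and Gm9953 of chromosome 6, with 4 loci each. Chromosome 12 held 31 of the 282 loci (11.0%), against 2.92% of distal loci, and 15 of the 31 lay in 2 stretches at chr12:19960328-20705914 and chr12:21548917-23094354. All 15 had second alignments, 14 held a CpG-rich peak, and their median GC was 70.4% in the first stretch and 72.0% in the second. The highest scores of the 15 were 528 (DOP-treated) and 946 (untreated), and the lowest were 39 and 22. The stretch at Gm9953 differed from these: 4 loci within 15.3 kb, none with a second alignment. Beside the locus with 9 peaks, they scored 277 and 463, 276 and 261, and 197 and 180. Gadd45g, a stress response gene, had 3 loci within 29.3 kb, 126 to 156 kb downstream, with scores of 266 and 251, 154 and 166, and 136 and 108, and the second of them lies at the start of the noncoding RNA Gm16767.

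The median distance of a locus from a coding start was 178 kb (quartiles 129 and 271), with 104 loci between 100 and 150 kb and 5 beyond 1000 kb. Upstream of the nearest start lay 136 loci and downstream 146, of which 29 lay inside that gene. The farthest was at the start of the pseudogene Cbfa2t2-ps1, 1577 kb from G6pd2, with scores of 106 and 104, followed by the pseudogene Gm9892, 1315 kb from Aga (69 and 74). The next were a repeated place 1237 kb from Nxph1 (29 and 33), the pseudogene Gm11263, 1116 kb from Ptprd (51 and 46), where 65.2% of the locus matches the start of Rps6, a ribosomal protein gene, at 100% identity, and a place 1048 kb from Cypt1 (112 and 128) with at least 50 other places. All 5 lay at percentile 15.03 or lower in both lists.

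The members nearest to the limit, in the DOP-treated list, lay 100044 bp from Nfatc2 (326, partner 257), 100119 bp from 2610044O15Rik (112, partner 244) and 101192 bp from Med13l (266, partner 245). In the untreated list they lay near Nfatc2, Med13l and Gm7292 (37, partner 49). Just outside the limit, shared DOP-treated peaks lay 99944 bp from Slc45a1 (113, partner 81), 99826 bp from 2610044O15Rik (194, partner 55) and 99825 bp from Cux1 (174, partner 157). The untreated partner of the 2610044O15Rik peak lay 99973 bp from the start and so is not a member, which leaves that locus with a member in only 1 list.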

How the data were processed

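H3K9ac ChIP-seq was measured in STHdh Q111 cells, with 2 samples per group and 1 IgG sample, and 1 peak list per H3K9ac group was deposited for mm9. The deposited score of each 200 bp peak came from the GPS/GEM event caller that the authors ran. Both deposited lists are longer than the peak sets the study describes, and the reason is not given in the sources used here. The scale of the score, the way replicates were combined, the threshold and the use of IgG are not given in the sources used here. The study's methods name Bowtie 2, whereas the submitters' processing notes name BWA 0.7.10. Read depth is unknown, so intervals cover the counting of loci only.

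Distances were taken from peak centres to the starts of all transcripts of protein-coding genes in GENCODE vM1. Peaks within 1 kb were chained into loci. Second places were found with minimap2 2.31-r1302, and 31184 of 32851 RefSeq promoter sequences (GRCm38.p6) were placed on mm9 by sequence alone, with none of the 10 loci of 1 chromosome assessed. Shares were compared by two-sided Fisher's exact tests with Benjamini-Hochberg adjustment over 8 features and Newcombe 95% intervals (Python 3.11.15, SciPy 1.17.1, statsmodels 0.14.6, pandas 2.3.3). The procedure was tested on simulated data.

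Members and lists were chosen with earlier results of these data known. The named loci were the 15 highest by score outside repeated sequence and second alignments, the 5 highest of all, the 5 with most peaks, the 5 farthest, those beside the limit, the 10 highest at noncoding starts, those of listed genes with 2 or more loci, and genes with the most loci. The alternatives changed the overlap, the distance, the annotation, the score minimum, the chaining and the comparison loci. The IgG sample was not used here.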

Additional observations from a re-analysis of the deposited data

How the results depend on the processing

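No paired analysis was possible because each group has 1 peak list, and for the same reason no replicate could be left out. Numbers of members are given as DOP-treated peaks, untreated peaks and loci. They moved to 864, 865 and 657 with a limit of 50 kb, to 142, 144 and 120 with 200 kb, to 126, 128 and 107 with starts of every GENCODE gene type, and to 45, 41 and 37 in the upper 50% of scores. A score of at least 100 left 205 untreated peaks and 182 loci. With every placed RefSeq start, an alternative chosen after seeing the data, they were 142, 147 and 125. With placed RefSeq coding starts alone, likewise chosen after seeing the data, they were 310, 314 and 259. Such a coding start lay within 1 kb of 4 remote loci (1.42%; distal 4.84%), the Foxp1 start among them. Against distal loci of 50 to 100 kb, the difference in noncoding starts was 6.39 percentage points (adjusted exact p = 0.0661) and that inside genes -1.46 (0.695). In the upper 50% of scores, noncoding starts (-5.08) and the inside of genes (13.5) turned direction, and more than 1 peak (-6.46), repeated sequence (6.94), second alignments (5.70) and another locus within 50 kb (-21.6) did not pass. That setting tests 37 remote loci. Without repeated or second-alignment loci, which leaves no value for those 2 features, noncoding starts differed by 2.71 and did not pass, and CpG-rich peaks differed by -8.90 and passed (adjusted exact p = 0.0190). The cause of these shifts was not tested.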
